A study of Mus musculus with 18 samples.

Results

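The lysyl oxidases (Lox and Loxl1 to Loxl4), elastin (Eln), the fibrillins Fbn1 and Fbn2 and the fibulins Fbln1 and Fbln2 were followed by name, 10 genes in all. Of these, 8 were among the 12394 genes with a probe set of their own on the array, with 13 probe sets, and 10 of the 13 probe sets had a mean of at least 4 on the log2 scale over all arrays. Those 10 probe sets covered the same 8 genes, which were tested among 7382 genes, each by its probe set of highest mean level. No probe set was listed for Fbn1, and the only probe set of Loxl2 is listed with another gene as well, so neither gene was analysed here.

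Messenger RNA of mouse embryo fibroblast (MEF) lines, mixed cultures grown out of dissociated embryos, was measured after 2 passages on 18 single-colour Affymetrix arrays, 1 array per line. The labels name 9 lines with the normal chromosome set (Wt), 4 with 3 copies of chromosome 13 (Ts13), 3 with 3 copies of chromosome 16 (Ts16), 1 with 3 copies of chromosome 1 (Ts1) and 1 with 3 copies of chromosome 19 (Ts19). Every trisomic line shares the first number of its title with 1 or 2 Wt lines, over 7 such numbers, and the labels do not say what that number stands for. The labels give no strain or embryo age and do not state that each line came from a separate embryo, so p-values measure the spread between these arrays. Ts1 and Ts19 are 1 line each, and the fit assumes that a lone array varies like the other groups.

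Elastic fibres form when secreted tropoelastin, the product of Eln, is deposited on microfibrils built of fibrillins. Fibulins sit between the elastin core and the microfibrils, and lysyl oxidases are copper enzymes that oxidise lysine side chains of elastin and collagen so that the chains cross-link. Embryonic fibroblasts make all these proteins, together with the fibrillar collagens that the same enzymes cross-link.

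Levels are log2 signals as deposited, which ran from 0.968 to 16.6, and a difference of 1 is a doubling of signal. On 3 arrays (Ts16 replicate 1, Ts13 replicates 3 and 4) the 3' control probe set of Gapdh exceeded the 5' one, a measure of transcripts shortened from the 5' end, by 5.57 to 6.94 in log2 signal, against -0.20 to 1.41 on the other 15, and the array medians were 5.11 to 5.29 against 5.62 to 5.91. These are called 3'-biased below, and values without them are given where they matter. All 12 fibroblast markers passed the filter on low levels, and their mean level was 12.4 to 13.7 in Wt, 12.5 to 13.2 in Ts13 and 13.1 to 13.7 in Ts16. Of 8 endothelial, 7 epithelial and 12 macrophage markers, 0, 1 and 2 passed. Of 7 cartilage and bone markers with a probe set, 2 passed: Col2a1 with a mean of 7.21 over all arrays, up to 10.82 in the Ts1 line, and Sox9 with 6.95. In these bulk samples, fewer cells of a type and less RNA per cell cannot be told apart.

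Lox, the founding member of the cross-linking enzymes (chromosome 18, 52516060 to 52529867, GRCm38.p6), was the only member called in trisomy 13, 1.26-fold higher on probe set 1416121_at. A second probe set, 1448228_at, was at -0.05 (limma adjusted p = 0.88), and the call was lost in several other fits given below. On probe set 1416121_at the 9 Wt arrays read from 14.50 to 14.90 in log2 signal with a median of 14.73. The Ts13 lines read 14.93, 15.11, 14.97 and 15.19, the Ts16 lines 14.83, 14.97 and 14.80, the Ts1 line 14.93 and the Ts19 line 14.96. Every Ts13 value lay above every Wt value, while the Ts16 values ran into the upper end of the Wt range.

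The Lox difference between Ts13 and Wt was 0.34 ± 0.08 in log2 signal (SE, limma adjusted p = 0.045, n = 4 and 9). It was the only call among the 8 members tested, against 1.76% of all genes called in either direction. Ts13 and Wt arrays did not overlap for Lox on the higher side, as for 1.77% of genes, and for Fbln1 on the lower side, as for 1% of genes. The Lox call was lost with the first title number as a block (0.29, limma adjusted p = 0.19, 0.0813% of genes called) and without the 3'-biased arrays (0.30, limma adjusted p = 0.36). It was also lost when any 1 of 11 arrays was left out (each Wt line but replicate 7, Ts13 replicates 3 and 4, Ts16 replicate 2), with a limma adjusted p of up to 0.22.

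Against Wt lines of the same first number, Lox was higher on 9 of 9 trisomic arrays. The differences in log2 signal were 0.27, 0.36, 0.22 and 0.29 in Ts13, 0.27, 0.23 and 0.23 in Ts16, 0.22 in Ts1 and 0.17 in Ts19. They were small and of like size on the arrays of all 4 trisomies, with Ts1 and Ts19 1 array each, and a mean of 0.25 ± 0.05 (SD, n = 9). Ts16 replicates 1 and 3 were set against the same Wt mean, as were Ts13 replicates 2 and 3, so the 9 differences are not independent. The exact permutation p within first numbers, two-sided, was 0.0017, the smallest that its 1152 relabellings can give. Of 6188 genes outside the trisomic chromosomes, 0.404% were higher on all 9 arrays in the same way, and in the fit of all trisomic lines against Wt the same difference did not pass (limma adjusted p = 0.49). On the 6 trisomic arrays without 3' bias the mean was 0.25, higher on 6 of 6, with an exact permutation p of 0.0069, again the smallest possible.

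**Figure D1:**
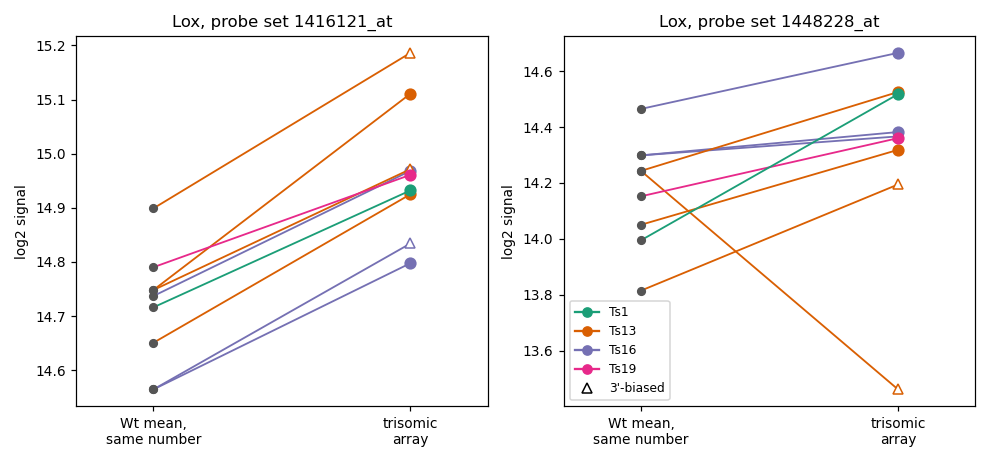
Lox log2 signal on the vertical axes for probe sets 1416121_at and 1448228_at. Each line joins the mean of the Wt arrays of a first title number to a trisomic array of that number, and triangles are 3'-biased arrays. All 9 lines go up on the first probe set, and 8 of 9 on the second.

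The second Lox probe set, 1448228_at, did not follow the first on every array. It read 13.81 to 14.46 in Wt, 14.32, 14.53, 13.46 and 14.19 in Ts13, 14.37, 14.67 and 14.38 in Ts16, 14.52 in Ts1 and 14.36 in Ts19. It was higher than the Wt lines of its number on 8 of 9 trisomic arrays, and the exception was the 3'-biased Ts13 replicate 3, at -0.78 in log2 signal. Between Ts13 and Wt as groups this probe set differed by -0.05 ± 0.16 (SE, limma adjusted p = 0.88). Without the 3'-biased arrays its mean difference from the Wt lines of its number was 0.26 over 6 arrays, beside 0.25 for the first probe set. The remaining probe set, 1437903_at, stayed below the filter at 2.14 to 2.34 on all 18 arrays.

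Loxl1, which binds tropoelastin and is needed to keep elastic fibres in adult tissue (chromosome 9, 58287723 to 58313212), held a narrow range in Wt, from 13.34 to 14.05 in log2 signal. It read 13.74, 13.91, 12.96 and 12.57 in Ts13 and 12.84, 13.39 and 13.72 in Ts16. The lowest 3 values of all 18 were those of the 3'-biased arrays. The difference between Ts13 and Wt was -0.43 (limma adjusted p = 0.27), and 0.11 without those arrays. Neither the Ts1 line, at 13.97, nor the Ts19 line, at 13.70, left the Wt range.

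Loxl3, a family member needed for cartilage and palate formation in the embryo (chromosome 6, 83034205 to 83052566), differed by title number among the Wt lines. The 3 Wt lines that share a number with Ts16 lines read 12.08 to 12.38 in log2 signal, and the 4 that share one with Ts13 lines read 11.11 to 11.53. The Wt line that shares the number of the Ts1 line was the lowest of all at 9.89, and the Ts1 line read 11.21, a difference of 1.32 from it. The Ts16 lines (11.90, 11.77 and 12.05) were thus 0.43 above the mean of all Wt lines (limma adjusted p = 0.79) but -0.32 ± 0.08 from those of their own numbers (SD, n = 3). All 3 were lower than their own Wt lines, as for 10.9% of genes, and 3 such lines cannot give an exact permutation p below 0.17. In Ts13 the levels were 11.31, 11.66, 11.08 and 11.44, a difference of -0.10 from Wt (limma adjusted p = 0.88).

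Loxl4 is the member on a trisomic chromosome, at 42592279 to 42612806 of chromosome 19, and codes for a lysyl oxidase with scavenger receptor domains. The Ts19 line read 5.93 in log2 signal, inside the Wt range of 5.34 to 6.51. Its difference from Wt was -0.01, with a 95% interval of -1.07 to 1.05 (limma), while the median of the 260 chromosome 19 genes tested was 0.58 in that line. A dose of that size lies within the interval, so 1 array could not show it for this gene.

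In Ts13, Loxl4 read 6.63, 5.92, 6.69 and 7.53 in log2 signal on probe set 1421153_at. The 2 highest of all 18 values came from 3'-biased Ts13 arrays, and the third such array, Ts16 replicate 1, read 6.45. The difference between Ts13 and Wt was 0.76 ± 0.29 (SE, limma adjusted p = 0.15), and 0.34 without the 3'-biased arrays. Without Ts13 replicate 2 it passed (1.02, limma adjusted p = 0.038). It did not pass with the first title number as a block (0.69, limma adjusted p = 0.35) or without the 3'-biased arrays (limma adjusted p = 0.79). All 4 Ts13 lines lay above the Wt lines of their numbers, as for 14.7% of genes. The other probe set, 1450134_at, was below the filter, with a highest value of 4.01 in Ts16 replicate 3.

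Eln, the fibre core (chromosome 5, 134702595 to 134747368), varied by 6.04 in log2 signal among the Wt lines alone. In the order of replicates 1 to 9 they read 5.28, 7.46, 9.04, 8.23, 11.32, 11.14, 11.17, 10.34 and 10.94 on probe set 1420855_at. The Ts13 lines read 5.13, 4.80, 7.96 and 5.89, the Ts16 lines 6.04, 9.55 and 10.85, the Ts1 line 11.28 and the Ts19 line 10.54. The Ts13 lines were low, and 2 Wt lines, replicates 1 and 2, both of numbers shared with Ts16 lines, lay within their range.

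The Eln means were 9.44 ± 2.10 in Wt (SD, n = 9), 8.82 ± 2.49 in Ts16 (n = 3) and 5.94 ± 1.42 in Ts13 (n = 4). Wt and Ts16 did not differ beyond their spread, and the difference of Ts13 from Wt, -3.49 ± 1.10 (SE), missed the threshold (limma adjusted p = 0.10). Without Wt replicate 1 alone it passed, with an adjusted p of 0.046. It did not pass with the first title number as a block (-4.52, limma adjusted p = 0.16) or without the 3'-biased arrays (-4.47, limma adjusted p = 0.22). Against the Wt lines of their own numbers the Ts13 lines differed by -3.10, -6.43, -3.28 and -5.27 in log2 signal, a mean of -4.52 ± 1.61 (SD, n = 4). All 4 were lower, as for 10.7% of genes, with an exact permutation p of 0.083, the smallest that 4 such lines allow. The 2 Ts13 lines without 3' bias gave the values -3.10 and -6.43.

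Ts16 lines lay above the Wt mean of their first number on 2 of 3 arrays, at 2.09 and 3.69 in log2 signal, and the 3'-biased replicate 1 was at -1.12. Against the Wt line of the same replicate number the Ts16 lines differed by 0.76, 2.09 and 1.81. The labels do not state this pairing, which was taken from correlations in these same data. By it Fbn2 and Lox were also higher on all 3 arrays, and Loxl1 and Loxl3 lower on all 3. The share of all genes that do so was not counted. The Eln difference of the Ts16 lines from all Wt lines was -0.62 (limma adjusted p = 0.90). It was 1.55 with the first title number or the replicate number as a block over their own 3 Wt lines. The 3 Wt lines of Ts16 numbers read 5.28 to 9.04 and the 4 of Ts13 numbers read 8.23 to 11.32, so the sign turned with the Wt lines used. The direct difference of Ts13 from Ts16 was -2.87 ± 1.40 (SE, limma adjusted p = 0.33), and -6.08 with the first title number as a block (limma adjusted p = 0.47). A second Eln probe set, 1420854_at, had a mean below 4, with 2.18 to 2.40 in all 4 Ts13 lines and up to 5.94 in Wt.

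**Figure D2:**
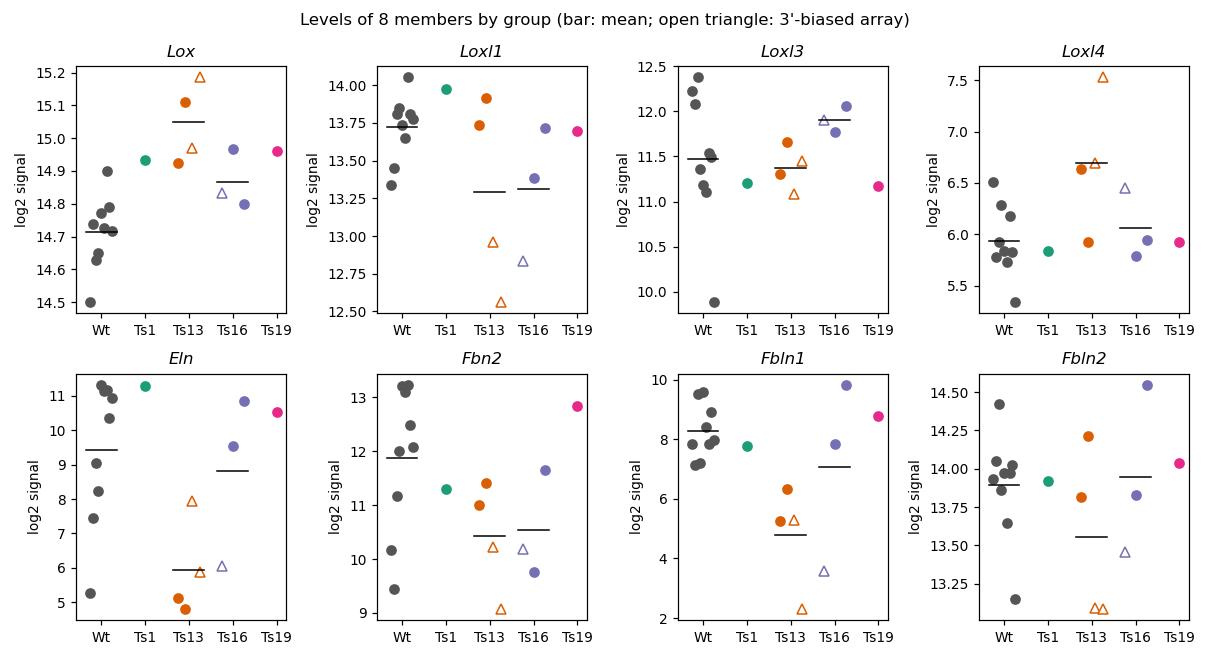
Log2 signal (vertical axes) of the 8 tested members on each of the 18 arrays by group, with bars at group means and open triangles for 3'-biased arrays. Eln ran from 5.28 to 11.32 in Wt and from 4.80 to 7.96 in Ts13, while Lox of all 4 Ts13 lines lay above the highest Wt value of 14.90.

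Fbn2, the fibrillin made mainly during development (chromosome 18, 58008623 to 58210572), also split by title number among Wt lines. The 3 that share a number with Ts16 lines read 9.44 to 11.16 in log2 signal, and the 4 that share one with Ts13 lines read 12.00 to 13.23. The Ts13 lines read 11.01, 11.41, 10.22 and 9.07, the Ts16 lines 10.19, 9.76 and 11.65, the Ts1 line 11.29 and the Ts19 line 12.83. Of the 4 Ts13 values, 3 lay within the range of all Wt lines, while Ts13 replicate 4, a 3'-biased array, lay below it.

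The Fbn2 difference of Ts13 from all Wt lines was -1.45 ± 0.67 (SE, limma adjusted p = 0.22). Against their own Wt lines the Ts13 differences were -0.99, -1.74, -2.93 and -4.16 in log2 signal, all lower, as for 10.7% of genes. The larger pair came from the 3'-biased arrays, and the mean without them was -1.37 over 2 lines. The Ts16 difference was -1.34 against all Wt lines (limma adjusted p = 0.76) and 0.28 against those of their own numbers. Ts13 and Ts16 differed from each other by -0.11 (95% interval -1.92 to 1.70, limma adjusted p = 0.96), and by -2.74 (-4.47 to -0.996, limma adjusted p = 0.47) with the first title number as a block.

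Fbln1, a fibulin of elastic fibres and basement membranes, spans 85205949 to 85286294 of chromosome 15. Its upstream window is set beside that of Loxl4 because the Ts13 group means of these 2 members differed from Wt in opposite directions, though neither difference passed the test. The windows are the 250 bases before an annotated start, 5' to 3' on the gene's strand, from RefSeq GRCm38.p6 (Fbln1 chr15:85205699-85205948, plus strand, the first of 2 listed starts; Loxl4 chr19:42612807-42613056, minus strand), and capitals mark GC boxes.
Fbln1: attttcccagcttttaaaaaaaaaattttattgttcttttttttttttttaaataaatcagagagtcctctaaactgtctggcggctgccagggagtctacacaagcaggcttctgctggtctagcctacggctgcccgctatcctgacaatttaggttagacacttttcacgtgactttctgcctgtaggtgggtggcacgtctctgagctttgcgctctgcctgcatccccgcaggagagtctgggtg
Loxl4: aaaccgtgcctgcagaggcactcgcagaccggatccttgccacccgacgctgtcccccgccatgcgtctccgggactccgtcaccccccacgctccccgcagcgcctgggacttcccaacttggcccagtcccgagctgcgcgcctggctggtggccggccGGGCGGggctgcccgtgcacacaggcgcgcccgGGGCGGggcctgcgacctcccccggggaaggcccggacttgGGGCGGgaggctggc
The Loxl4 window was 76.0% G and C with 27 CpG pairs, the Fbln1 window 46.4% with 7, against medians of 52.4% and 6 over 32851 such windows. On either strand, the Loxl4 window held 3 GC boxes (GGGCGG, in 32.7% of all windows), and the printed Fbln1 window none. The window of the other listed Fbln1 start, which overlaps the first and is not printed, was 62.4% G and C with 14 CpG pairs and held 1 GC box. The window of Fbln2, which was at -0.34 in Ts13 and did not pass either, is also not printed. It was 58.8% G and C with 8 CpG pairs and held 1 GC box. Neither printed window held a TATA box (TATAAA, in 12.4%), a CCAAT box (CCAAT, in 33.8%) or an AP-1 site (TGANTCA, in 6.75%). The motifs do not overlap in these windows, and a match describes letters only.

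Fbln1 read from 7.13 to 9.57 in log2 signal in Wt on probe set 1451119_a_at, with a mean of 8.27 ± 0.91 (SD, n = 9). The Ts13 lines read 5.27, 6.32, 5.29 and 2.29, the Ts16 lines 3.56, 7.83 and 9.83, the Ts1 line 7.76 and the Ts19 line 8.76. All 4 Ts13 lines lay below every Wt line, and so did the 3'-biased Ts16 line, while the other 2 Ts16 lines did not.

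The Fbln1 difference between Ts13 and Wt was -3.47 ± 0.91 (SE), and it missed the threshold (limma adjusted p = 0.063). Leaving out Ts16 replicate 1, Ts16 replicate 3 or Ts13 replicate 2 brought it past, with adjusted p-values of 0.014, 0.036 and 0.026. Other single arrays left out gave a limma adjusted p of up to 0.31. With the first title number as a block it was -3.46 (limma adjusted p = 0.29), and without the 3'-biased arrays -2.47 (limma adjusted p = 0.18). Against their own Wt lines the Ts13 differences were -1.92, -2.67, -3.70 and -5.54 in log2 signal (exact permutation p = 0.083, the smallest possible). All were lower, as for 10.7% of genes. The larger pair was again 3'-biased, and the mean without them was -2.30 over 2 lines. The 2.29 of Ts13 replicate 4 lies below the minimum mean of 4, so -5.54 is measured against a signal that may be background. Ts13 differed from Ts16 by -2.28 ± 1.16 (SE, limma adjusted p = 0.34), and by -4.03 with an adjusted p of 0.039 without Ts16 replicate 1. That difference was -2.37 with the first title number as a block (limma adjusted p = 0.99) and -3.03 without the 3'-biased arrays (limma adjusted p = 0.16).

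The other Fbln1 probe set, 1422540_at, read 3.71 to 8.11 in Wt and 3.96, 4.01, 6.09 and 5.83 in Ts13. On the 3'-biased arrays the probe sets parted: Ts13 replicate 4 and Ts16 replicate 1 read 5.83 and 5.90 here, against 2.29 and 3.56 on 1451119_a_at. On 1422540_at the Ts13 lines were also below their own Wt lines on 4 of 4 arrays, beside 10.7% of the tested genes. The mean was -1.79 ± 1.12 in log2 signal (SD), and the 2 lines without 3' bias gave the largest differences, -1.90 and -3.30. Its group difference was -1.44 ± 0.68 (SE, limma adjusted p = 0.23).

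Fbln2, a fibulin that binds fibrillin and tropoelastin (chromosome 6, 91212460 to 91272540), read 13.15 to 14.42 in log2 signal in Wt. The Ts13 lines read 13.82, 14.22, 13.09 and 13.08, and the Ts16 lines 13.46, 13.83 and 14.55. The low Ts13 pair was 3'-biased, and the group difference of -0.34 (limma adjusted p = 0.42) was 0.13 without those arrays. The Ts1 line at 13.92 and the Ts19 line at 14.03 lay within the Wt range.

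**Figure D3:**
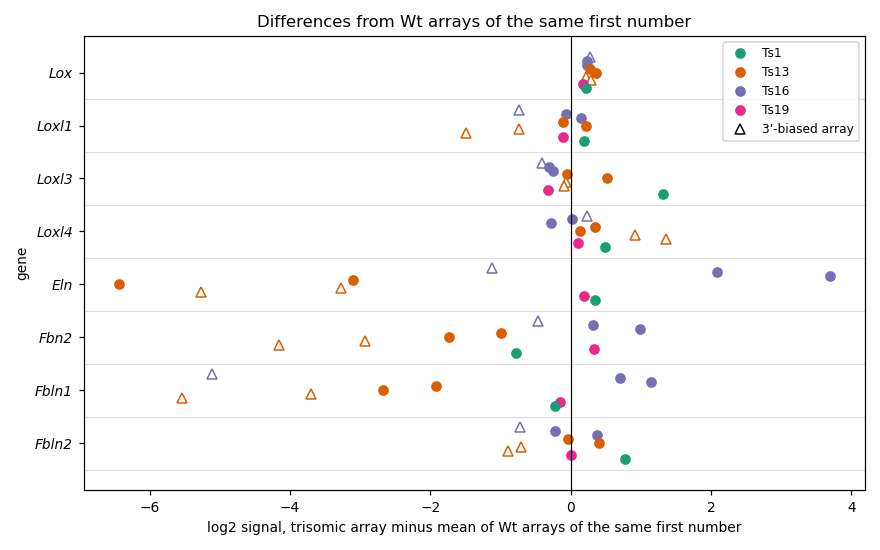
Difference in log2 signal of each trisomic array from the mean of the Wt arrays of its own first title number (horizontal axis) for the 8 tested members, coloured by trisomy, with triangles for 3'-biased arrays. Lox lies between 0.17 and 0.36 on all 9 arrays, and Eln between -6.43 and -3.10 in Ts13 but between -1.12 and 3.69 in Ts16.

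Over all 9 trisomic arrays, the mean difference from own-number Wt lines was 0.37 ± 0.50 for Loxl4 (SD, higher on 8 of 9) and -1.94 ± 2.48 for Fbln1 (lower on 7 of 9). Each had an exact permutation p of 0.050 and did not pass, and the share of all genes with such counts was not taken. Loxl4 lies on chromosome 19, so the Ts19 line among these arrays carries 3 copies of it. Loxl4 passed without Wt replicate 1, Ts16 replicate 3 or Ts13 replicate 2, Fbln1 without Wt replicate 2, Ts16 replicate 2 or Ts16 replicate 3, and Fbn2 without Wt replicate 1 or Ts16 replicate 3, with exact p from 0.010 to 0.045. With all arrays the exact permutation p was 0.078 for Fbn2, 0.18 for Loxl1, 0.20 for Eln, 0.60 for Fbln2 and 0.89 for Loxl3. These 8 p-values are not adjusted.

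Over the 8 members, Ts13 had 1 call upward (1.1% of all genes) and 0 downward (0.664%) by limma. An unadjusted p under 0.05 was found for 5 of the 8, against 21.9% of all genes. The median difference over the 8 was -0.38 in log2 signal, beside 0.01 over all genes tested, and 6 of the 8 lay below 0. Without the 3'-biased arrays the median of the 8 was 0.06 and 3 of the 8 lay below 0. Ts16, Ts1 and Ts19 against Wt gave 0 calls among the 8 by limma, against 0.0406%, 0.0406% and 0% of all genes. At an unadjusted p under 0.05 they also had 0 of the 8, against 6.99%, 6.29% and 1.96%. The pooled trisomic lines against Wt gave 0 of 7 calls by limma (0.0646% of genes), with Lox and Fbln1 at an unadjusted p under 0.05 (6.69% of genes). Ts13 against Ts16 gave 0 of 8 calls by limma (0.918% of genes), and 0 at an unadjusted p under 0.05 (15.9%). All of these but the last share the 9 Wt lines.

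**Figure D4:**
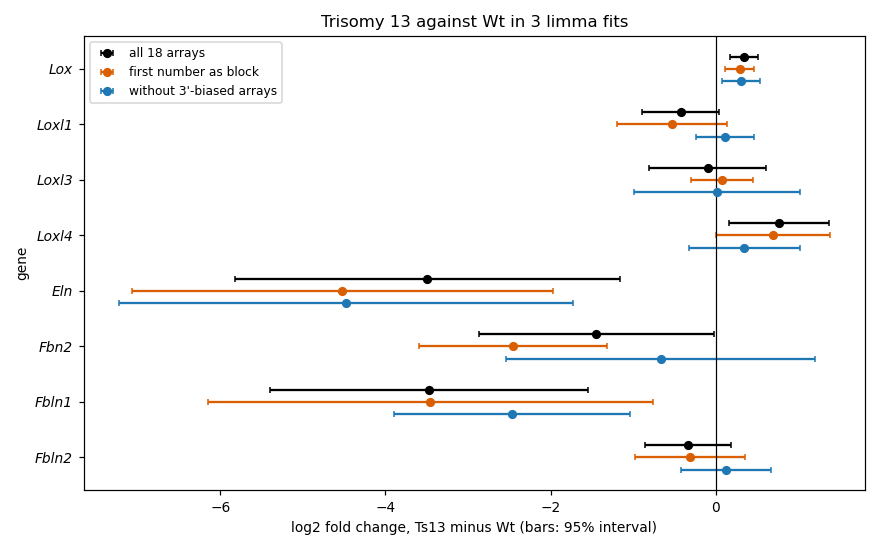
Log2 difference between Ts13 and Wt (horizontal axis) with 95% intervals for the 8 tested members in 3 limma fits: all 18 arrays, the first title number as a block, and without the 3'-biased arrays. Eln was at -3.49, -4.52 and -4.47, Fbln1 at -3.47, -3.46 and -2.47, and Lox at 0.34, 0.29 and 0.30.

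Other genes of fibre assembly and cross-linking were read in 4 lists of 36 genes, of which 32 had a probe set and 30 were tested. In each of the 6 comparisons 0 of the tested genes were called by limma, and in Ts13 9 of the 30 had an unadjusted p under 0.05, beside 21.9% of all genes. Their median Ts13 difference was -0.06 in log2 signal, with 13 above 0 and 17 below.

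Among 10 tested microfibril and interface genes, Mfap4, a microfibril-associated glycoprotein of elastic fibres, came nearest. It was 9.74 ± 1.74 in log2 signal in Wt (SD, n = 9) and 6.42 ± 0.98 in Ts13 (n = 4), a difference of -3.32 ± 0.83 (SE, limma adjusted p = 0.053). It passed without Ts13 replicate 2, without Ts16 replicate 1 or 3 and without Wt replicate 1 or 2, with adjusted p-values from 0.015 to 0.049. It did not pass with the first title number as a block (-3.94, limma adjusted p = 0.065) or without the 3'-biased arrays (-3.01, limma adjusted p = 0.38). Against their own Wt lines Mfap4 differed by -3.94 ± 1.25 (SD) in Ts13, lower in 4 of 4 (10.7% of genes), and by 1.68 ± 1.21 in Ts16, higher in 3 of 3 (12.1% of genes). Ltbp1, which tethers latent TGF-beta to microfibrils, was at 1.14 ± 0.39 in Ts13 (SE, limma adjusted p = 0.12). It only just passed without Ts16 replicate 1 (limma adjusted p = 0.04998). Its limma adjusted p was 0.35 with the first title number as a block and 0.47 without the 3'-biased arrays. Between Ts13 and Ts16, where 15.9% of all genes had an unadjusted p under 0.05, 3 of these 10 did: Ltbp1 at 1.82 (limma adjusted p = 0.089), decorin (Dcn), a collagen-binding proteoglycan, at -2.62 (0.11), and Mfap4 at -3.25 (0.14).

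In the list of lysyl oxidase activation and copper supply, 10 of 10 genes were tested. Fibronectin (Fn1), a matrix scaffold on which Lox is processed, was at 0.26 ± 0.09 in log2 difference in Ts13 (SE, limma adjusted p = 0.13). Fibromodulin (Fmod), a collagen-binding proteoglycan that brings lysyl oxidase to fibrils, was at -1.40 ± 0.52 in Ts13 (SE, limma adjusted p = 0.15). Its difference from its own Wt lines was lower in 4 of 4 Ts13 lines and higher in 3 of 3 Ts16 lines, beside the same 10.7% and 12.1% of genes, and Ts13 differed from Ts16 by -2.62 (limma adjusted p = 0.072). The other fibulins tested, Efemp1 and Fbln5, were at 0.94 (limma adjusted p = 0.23) and -0.04 (0.89) in Ts13. Among 8 lysyl hydroxylases and collagen substrates, Col1a1, a chain of type I collagen, was at -1.56 (limma adjusted p = 0.13), at -2.05 without Ts13 replicate 2 (0.033) and at -0.20 without the 3'-biased arrays.

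Likeness was described by Pearson correlation of log2 signal over the 18 arrays, which share the 3' bias and the title numbers. The gene most like Eln was Mfap4, at r = 0.91 over 18 arrays and 0.96 over the 15 without 3' bias, followed by Islr at 0.89 and 0.88 and Ptn at 0.84 and 0.86. The genes most like Fbn2 were Nfatc4, Ptdss2 and Fads1, at 0.91, 0.90 and 0.89, and 0.92, 0.85 and 0.90 without the biased arrays. For Lox the nearest were S100a1, Cryab and Tubb2a at 0.83, 0.80 and 0.80, and for Loxl3 Ldha, Eif2s2 and Sbds at 0.81, 0.81 and 0.79.

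For Fbln1 and Loxl4 the likeness was lower over the 15 arrays. Fbln1 was most like Arap1, Pygb and Mfap2, at 0.94, 0.92 and 0.91 over 18 arrays and 0.86, 0.78 and 0.76 over 15. Loxl4 was most like Golm1, Rabep1 and Galnt3, at 0.85, 0.83 and 0.83, and 0.73, 0.47 and 0.56 over 15. Loxl1 was most like Rhot2, Cul7 and Ilrun (0.98, 0.97 and 0.97, and 0.94, 0.85 and 0.87 over 15). Fbln2 was most like Tgfb1i1, Rhog and Tns1 (0.93, 0.93 and 0.91, and 0.91, 0.87 and 0.84 over 15). Of the genes named as most like a member, Tubb2a and Golm1 lie on chromosome 13, Fads1 on chromosome 19 and Tns1 on chromosome 1. Some lines carry 3 copies of these chromosomes, and the part of copy number in the likeness was not tested.

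**Figure D5:**
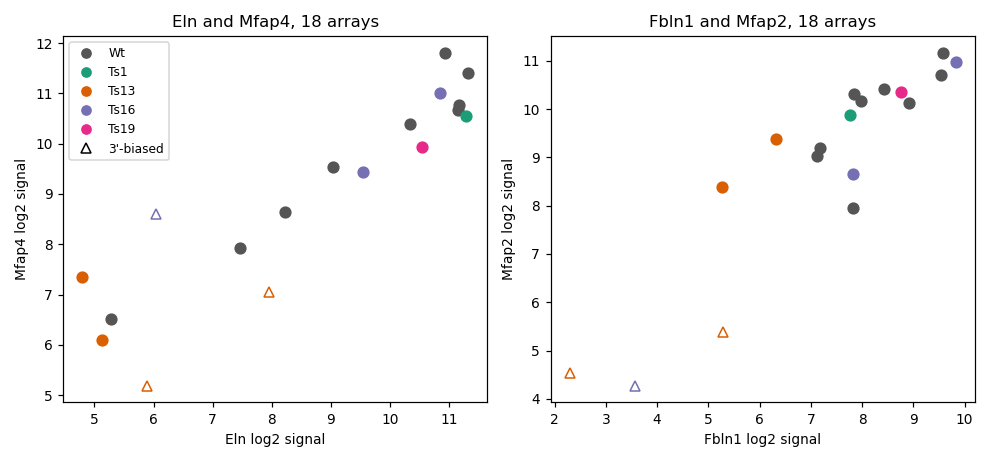
Log2 signal of Mfap4 against Eln and of Mfap2 against Fbln1 on 18 arrays, coloured by group, with triangles for 3'-biased arrays. The first pair had r = 0.96 over the 15 unbiased arrays and 0.91 over all 18, and the second 0.76 and 0.91.

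Among the members themselves, Eln followed Fbln1 at r = 0.71 over 18 arrays and 0.71 over 15, and Fbn2 at 0.67 and 0.59. Loxl1 and Fbln1 were at 0.74 over 18 arrays but at -0.01 over the 15 without 3' bias. Loxl3 and Fbln2 went from 0.60 to 0.81. Lox and Fbln1 were at -0.54 and -0.34, and Loxl4 and Fbln1 at -0.77 and -0.44.

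Smooth muscle markers, of which 10 of 11 passed the filter, had a mean level of 8.80 to 10.1 in log2 signal in Ts13, 9.43 to 10.8 in Wt and 9.72 to 10.5 in Ts16. The macrophage markers Lyz2 and Ctss were highest on Ts13 replicate 4, at 9.07 and 9.27, as were Adgre1, Tyrobp, Fcer1g and Ptprc at lower levels. Csf1r was highest on Ts16 replicate 3 and Laptm5 on Wt replicate 8. Cd14, Cd68, Itgam and Aif1 stayed below 4 on every array. Ts13 replicate 4 was also the array with the lowest Fbn2. Fbln1 was also lowest there on probe set 1451119_a_at, at 2.29, but not on 1422540_at, at 5.83. The mean of all 12 macrophage markers was 2.71 to 5.32 in Ts13 and 2.50 to 4.35 in Wt. The part of these cells in the differences was not tested.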

How the data were processed

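The authors deposited 1 table of log2 values for 22690 probe sets on 18 arrays; the submitters' processing notes name affy and GCRMA, and the settings were not given in those notes. Probe sets were named from the platform's gene table (20393 with 1 gene, 691 with several, 1606 without an entry), and positions are those of RefSeq GRCm38.p6. The medians of the 3'-biased arrays were lower than those of the other arrays, and whether quantile normalization was applied is not known. The 64 control probe sets were left out. Per gene, the probe set of highest mean was kept, with a minimum mean of 4. limma 3.58.1 in R 4.3.3 (lmFit, eBayes with a trend) fitted 5 groups, with 13 residual degrees of freedom. Benjamini-Hochberg adjustment ran over all genes tested (7382, or 6188 and 6862 in the pooled trisomic and the Ts13 against Ts16 comparison, which leave out trisomic chromosomes), two-sided, threshold 0.05. The array number limits precision, not a read depth.

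Differences from Wt lines of the same first title number were tested by exact permutation within numbers. The labels do not state that replicate numbers pair lines. Between Ts16 and Wt lines of like replicate number, r of deviations was 0.52, 0.41 and 0.58. For Ts13 it was -0.24, -0.03, -0.26 and -0.25. By first number, r for Ts13 with its Wt lines was 0.36, 0.16, -0.01, -0.03, 0.05 and -0.10, in replicate order. Each Ts16 pair of like replicate number also shares a first number. Ts16 replicates 1 and 3 further share theirs with Wt replicates 3 and 1, at -0.47 and -0.60. Own-number Wt lines are thus not shown to be closely matched controls for Ts13. For Ts16 replicates 1 and 3, their mean joins Wt lines of positive and negative r. Named were all members, up to 2 genes per list and comparison in the order of p, and the 3 genes most like each member. The limma and permutation steps were tested on simulated data. The members, lists and the limit for 3' bias were chosen with earlier results of these data known.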

Additional observations from a re-analysis of the deposited data

How the results depend on the processing

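The count of members called in Ts13 was 1 and stayed 1 with a minimum mean of 6, equal array medians and quantile normalization. It was 0 without a filter, with the mean over all probe sets, with every probe set tested on its own, with the first title number or the replicate number as a replicate block, with the Gapdh difference as a covariate, without the 3'-biased arrays and without a trend. The fits with a block, a covariate or fewer arrays have fewer residual degrees of freedom. Over all genes those settings called 6 (2 up, 4 down) under the first-number block and 14 (11 up, 3 down) without the 3'-biased arrays, against 130 (81 up, 49 down). Leaving out 1 array gave 0 to 3 members in Ts13, 0 to 1 for Ts13 against Ts16, and 0 in the other comparisons. Members with an exact permutation p under 0.05 over all 9 trisomic arrays numbered 1 (Lox), 3 with the mean over probe sets, 2 with equal medians, and 1 to 4 without 1 array. Mfap4 in Ts13 passed with equal array medians (limma adjusted p = 0.048). The block changed no other call, Ts16 pairs included; Lox in Ts16 was 0.24 with the replicate block over replicates 1 to 3.

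Signs turned for differences that missed the threshold, and their causes were not tested. In Ts13, Loxl3 was at 0.076 with the first number as block, 0.050 with the Gapdh covariate and 0.010 without the 3'-biased arrays. Fbln2 was at 0.060 with the covariate and 0.13 without those arrays, Loxl1 at 0.11 without them, and Fbln5 at 0.12 with the replicate number as block. In Ts16 with the first number as block, and likewise with replicates 1 to 3 as block, Loxl3 was at -0.32, Eln at 1.55, Loxl4 at -0.011, Fbn2 at 0.28 and Fbln2 at -0.19. With all replicate numbers as block, Loxl3 was at -0.20, Eln at 1.42 and Fbln2 at -0.23. Loxl4 in Ts16 was at -0.053 with the covariate. Without the 3'-biased arrays, Ts16 had Eln at 0.77, Loxl4 at -0.070 and Fbln1 at 0.56. For the pooled trisomic lines, the replicate number as block gave Loxl3 -0.55, Eln 0.98 and Fbn2 0.15. Fbln2 was there at 0.15 with the covariate and 0.17 without the 3'-biased arrays, and Loxl1 at 0.018. Between Ts13 and Ts16, Lox was at -0.033 with the mean over probe sets, and Fbn2 at 0.033 with the covariate and 0.50 without the biased arrays. Loxl4 in Ts19 was at 0.066 with the mean over probe sets, 0.089 with equal medians, 0.046 with quantile normalization and 0.098 with the block.

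Among differences from the own-number Wt lines without the 3'-biased arrays, Loxl1 was at 0.045 over all lines, 0.056 in Ts13 and 0.038 in Ts16, Fbln2 at 0.22, 0.18 and 0.076, and Fbln1 at 0.92 in Ts16. Loxl4 in Ts16 was at 0.058 with the mean over probe sets and 0.016 with equal medians. Leaving out 1 array, signs turned within these ranges: Loxl3 from -0.30 to 0.013 and Fbln5 from -0.16 to 0.040 in Ts13. In Ts16 the ranges were -1.64 to 0.77 for Eln, -0.070 to 0.26 for Loxl4, -0.25 to 0.30 for Fbln2 and -2.57 to 0.56 for Fbln1. For Loxl3 in the pooled lines it was -0.16 to 0.15, for Fbn2 between Ts13 and Ts16 -0.50 to 0.45, and for Loxl4 in Ts19 -0.083 to 0.062. Own-number ranges were -0.12 to 0.093 for Loxl3 over all lines and -0.069 to 0.13 in Ts13. In Ts16 they were -0.40 to 0.038 for Loxl1, -0.21 to 0.18 for Loxl4, -0.074 to 0.65 for Fbn2, -2.21 to 0.92 for Fbln1 and -0.47 to 0.076 for Fbln2. The number of arrays limits precision: 3 or 4 lines cannot give an exact p below 0.05, and Eln, Fbln1 and 1 Loxl4 probe set reach levels near or below the filter on some arrays.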
